A study of Homo sapiens with 18 samples.

Results

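The genes described here are the sterol and fatty acid synthesis genes under the sterol regulatory element-binding proteins (SREBPs), chosen by name from the cholesterol and fatty acid pathways by a rule that uses no measured value, though with earlier results of these data known. Of 37 named genes, 36 were matched to the deposited count table and all 36 were among the 15307 genes tested. They comprised 7 genes of the mevalonate branch, 11 of the sterol branch, 6 regulators and 12 of fatty acid synthesis and desaturation; ACACA was not matched by identifier and has no value here. The cells were MDA-MB-231, a human triple-negative breast cancer line, and the 3 groups of 6 libraries each were siRagC1 and siRagC2, which received either of 2 independent siRNAs against RagC and are labelled RagC knock-down, and siCtrl, which received the control siRNA. RagC, the product of RRAGC, belongs to the Rag GTPases that tether the kinase complex mTORC1 to lysosomes, and the stated purpose was to find genes whose expression is altered by repressing mTORC1.

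All 3 groups were kept in L-15 medium with 15% serum and 2 mM glutamine under 1% CO2, and were transfected by lipofection in OPTI-MEM, a reduced-serum medium, with RNA taken after 72 hours. Replicates were numbered 1 to 6 in each group. The library codes put numbers 1 and 2 in a series coded D1103 and numbers 3 to 6 in one coded D1221; the labels do not say what codes and numbers mean. The labels name the replicates biological without saying what was repeated, so p-values cover only the spread of these libraries, which may be technical. The model is a partial and transient loss of the transcript in 1 cell line.

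Library totals reached 55.4 M counts with siRagC1 (lowest 22.9 M), 71.6 M with siRagC2 (lowest 14.8 M) and 44.3 M with siCtrl (lowest 18953348 counts). RRAGC was at 12.3 to 31.9 CPM (counts per 1e6 counts, on TMM-scaled library sizes) with siRagC1 and 19.3 to 40.8 CPM with siRagC2, against 60.6 to 67.9 CPM with siCtrl, and neither knockdown range overlapped that of siCtrl. The line's markers were as labelled, with VIM between 3790 and 5380 CPM and the estrogen receptor gene ESR1 at no more than 0.141 CPM in any library. Markers of other cell types, 7 of 8 matched, summed to 23.6 to 37.8 CPM with siRagC1 and 23.5 to 74.0 CPM with siRagC2, against 24.4 to 38.6 CPM with siCtrl. Most of this sum was COL1A1, which was higher with siRagC2 (log2 fold change 0.75, edgeR adjusted p = 0.0440); its part in the results below was not tested.

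SREBPs are made as membrane proteins of the endoplasmic reticulum. The escort SCAP carries them to the Golgi, where proteases release the active part, and INSIG proteins hold SCAP back when sterols are plentiful. The released factors bind sterol regulatory elements, often beside sites of NF-Y, which reads the CCAAT box; SREBF2 encodes the form that mainly drives cholesterol synthesis and SREBF1 the forms that mainly drive fatty acid synthesis. mTORC1 is known to promote SREBP activity.

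Promoters of 3 members are shown because SREBF2 is the factor itself and INSIG1 and SCD, a target that encodes the delta-9 desaturase, varied most clearly between replicate numbers. The windows run from 250 bases before to 50 bases after the transcription start, 5′ to 3′ on the gene's strand, from RefSeq on GRCh38.p14. They lie at chr22:41832855-41833154 (SREBF2, + strand), chr7:155297628-155297927 (INSIG1, + strand) and chr10:100346983-100347282 (SCD, + strand). Capitals mark a match to the sterol regulatory element, searched as TCACNCCAC, and the CCAAT box, which reads ATTGG where it lies on the opposite strand.
SREBF2: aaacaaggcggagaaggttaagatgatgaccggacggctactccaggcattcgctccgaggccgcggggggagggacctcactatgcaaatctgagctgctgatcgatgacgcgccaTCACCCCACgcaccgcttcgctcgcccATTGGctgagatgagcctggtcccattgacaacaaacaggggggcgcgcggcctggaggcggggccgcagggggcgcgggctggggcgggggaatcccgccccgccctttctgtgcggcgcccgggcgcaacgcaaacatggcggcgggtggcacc
INSIG1: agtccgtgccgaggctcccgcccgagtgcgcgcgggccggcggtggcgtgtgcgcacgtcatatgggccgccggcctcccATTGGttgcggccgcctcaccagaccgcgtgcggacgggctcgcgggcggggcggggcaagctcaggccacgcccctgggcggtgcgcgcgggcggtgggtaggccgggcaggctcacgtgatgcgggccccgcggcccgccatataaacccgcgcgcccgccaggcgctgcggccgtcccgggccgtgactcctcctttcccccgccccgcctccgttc
SCD: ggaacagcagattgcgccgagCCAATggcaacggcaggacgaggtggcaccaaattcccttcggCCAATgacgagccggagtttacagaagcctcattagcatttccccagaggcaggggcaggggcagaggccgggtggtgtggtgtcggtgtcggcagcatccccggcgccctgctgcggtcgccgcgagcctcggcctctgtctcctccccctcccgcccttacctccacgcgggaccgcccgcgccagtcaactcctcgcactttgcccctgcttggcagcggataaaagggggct
In SREBF2 the element began at position -133 from the start and the inverted CCAAT box at -106. INSIG1 had its inverted CCAAT box at -170.

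RefSeq windows were found for 32 of the 36 members, 43 windows in all because some genes have several starts, and were searched on both strands. The element TCACNCCAC was in 1 of the 43, that of SREBF2 (2.33%, against 1.13% of all 35116 windows). CCAAT was in 27 windows (62.8%, against 34.6%), GGGCGG, the core read by Sp1, in 38 (88.4%, against 45.0%) and CACGTG, the E-box, in 6 (14%, against 7.26%). Among the 22199 windows of protein-coding genes, the shares were 1.13% (TCACNCCAC), 34.7% (CCAAT), 56.3% (GGGCGG) and 8.34% (CACGTG). These matches describe the letters of the windows.

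Without a term for replicate number, the filtered edgeR fit over all 18 libraries called no member with either siRNA. With the number, which the groups share, as a block, STARD4, SCD5 and LPIN1 were lower with siRagC2. STARD4 was also lower in the mean of both, as given below. With edgeR's quasi-likelihood test and Benjamini-Hochberg adjustment over all 15307 genes, 0 of 36 members were called with siRagC1, where 1.41% of all genes were called higher and 0.627% lower. With siRagC2 0 of 36 were called, against 1.87% of genes higher and 1.36% lower. For the mean of both siRNAs the count was 0, against 2.72% higher and 2.23% lower, and between siRagC1 and siRagC2 edgeR called 0 members and 0% of genes in either direction. At an unadjusted p under 0.05, 3 members were lower with siRagC1, 3 with siRagC2 and 3 in the mean, and 2 differed between the siRNAs; over all genes the shares in either direction were 17.1%, 18.5%, 20% and 7.75%. DESeq2 called 1, 1, 0 and 0 members in these 4 comparisons, where it called 5.04%, 6.50%, 8.36% and 0.163% of all genes. limma-voom called 0 members in each, where it called 2.21%, 3.40%, 5.41% and 0% of all genes.

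The members' log2 fold changes were small. Their median was -0.04 with siRagC1 and -0.03 with siRagC2, beside 0.01 and 0.00 over all genes tested. The sign was negative for 24 of 36 members with siRagC1 and for 22 of 36 with siRagC2, where 51.7% of all genes were positive with each. The largest was -0.16 (STARD4) with siRagC1 and -0.23 (LPIN1) with siRagC2. The 95% intervals of all 36 members lay between -20.9% and 34.6% with siRagC1, both bounds from SCD. With siRagC2 they lay between -26.7% (LPIN1) and 41.2% (INSIG1). With each siRNA, the intervals of 25 members stayed within 1.2-fold of siCtrl in both directions. These intervals are from the fit without the number as a block, so their widths include differences between numbers.

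**Figure D1:**
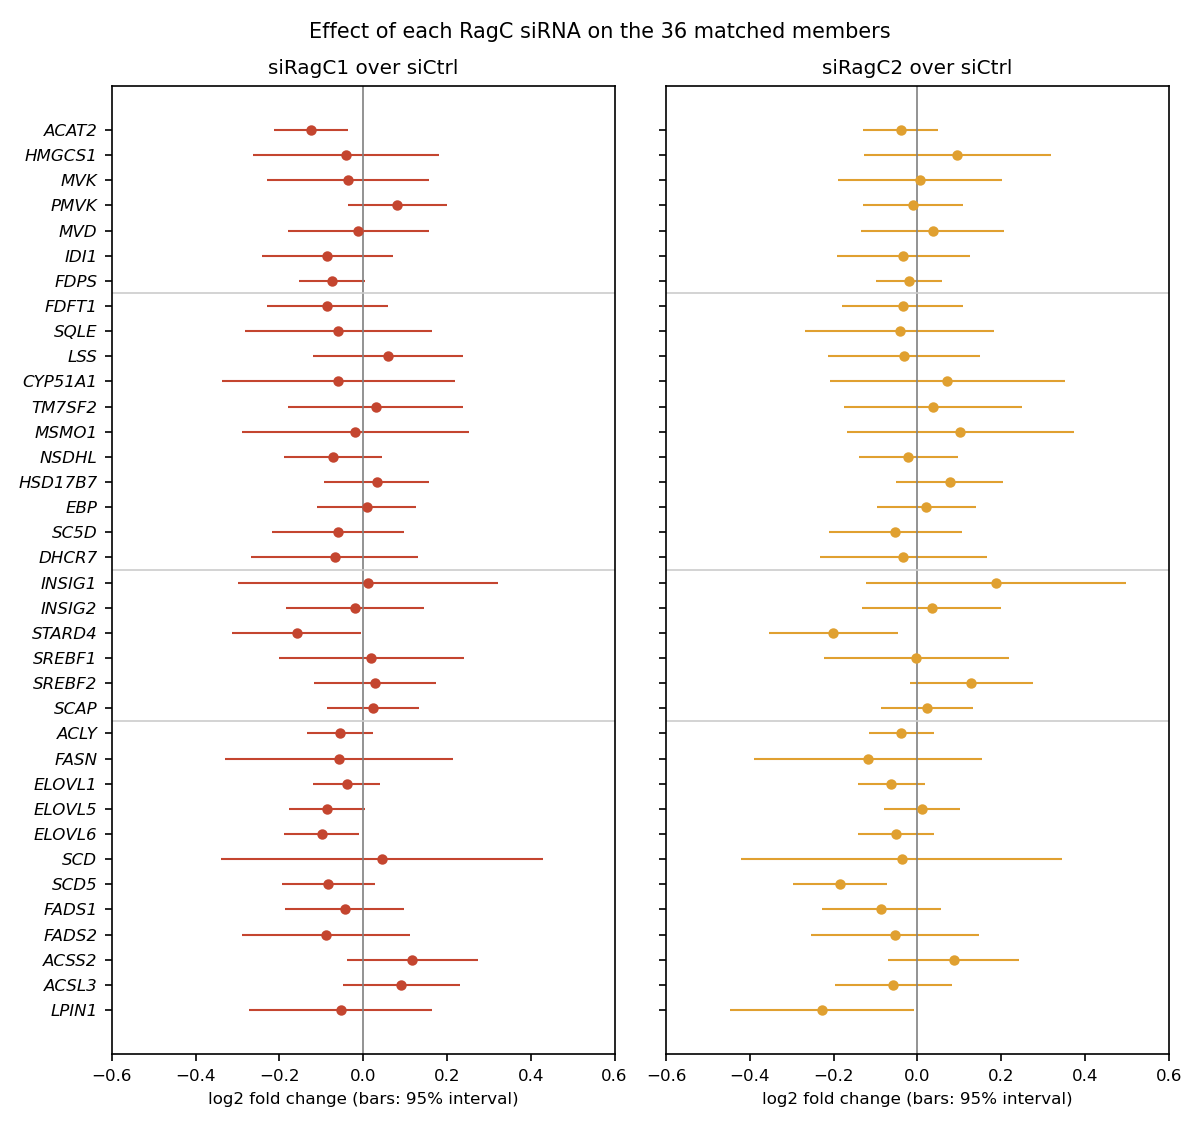
Log2 fold change of each of the 36 matched members with siRagC1 (left) and siRagC2 (right) over siCtrl, with points for the edgeR estimate and bars for its 95% interval; grey lines separate the mevalonate, sterol, regulator and fatty acid genes. The estimates span -0.16 to 0.12 on the left and -0.23 to 0.19 on the right, and the intervals of 33 of 36 members cross 0 in each panel. The fit has no term for replicate number, so the widths include differences between numbers.

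Among the regulators, the transcripts of the factors and of SCAP stayed close to siCtrl. SREBF1 spanned 138 to 250 CPM with siRagC1 (median 194) and 152 to 233 CPM with siRagC2 (median 188), against 117 to 247 CPM with siCtrl (median 196), and the groups overlapped throughout. Its log2 fold changes were 0.02 ± 0.11 for siRagC1 and -0.00 ± 0.11 for siRagC2 (SE, n = 6 each; edgeR adjusted p = 0.951 and 0.994). SREBF2 spanned 151 to 198 CPM with siRagC1 (median 177) and 153 to 229 CPM with siRagC2 (median 186), against 127 to 201 CPM with siCtrl (median 175). With siRagC2 it was above the same-numbered control in 6 of 6 numbers, at a log2 fold change of 0.13 ± 0.07 (edgeR adjusted p = 0.342). SCAP's log2 fold change was 0.02 with each siRNA (edgeR adjusted p = 0.871 and 0.875).

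INSIG1, itself an SREBP target and the retention factor of the pathway, was at 218, 237, 205, 222, 159 and 143 CPM in siRagC1 replicates 1 to 6 and at 277, 321, 220, 239, 164 and 136 CPM in those of siRagC2. The siCtrl values were 225, 230, 208, 214, 164 and 135 CPM. With siRagC2 it was above the same-numbered control in 6 of 6 numbers and above every control in replicates 1, 2 and 4, and the excess was widest in numbers 1 and 2. The log2 fold change was 0.01 ± 0.15 for siRagC1 (edgeR adjusted p = 0.980) and 0.19 ± 0.15 for siRagC2 (edgeR adjusted p = 0.561). INSIG2, the second retention factor, had log2 fold changes of -0.02 with siRagC1 and 0.03 with siRagC2 (edgeR adjusted p = 0.933 and 0.876).

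STARD4, a soluble sterol carrier, was the regulator with the lowest estimates. It spanned 70.9 to 92.3 CPM with siRagC1 (median 77.3) and 66.5 to 86.9 CPM with siRagC2 (median 77.8), against 80.4 to 99.3 CPM with siCtrl (median 89.4). Every siRagC1 library was below its same-numbered control, as were 5 of 6 siRagC2 libraries (all but number 2), though the ranges overlapped. The log2 fold change with siRagC1 was -0.16 ± 0.07 (edgeR adjusted p = 0.276), and with siRagC2 it was -0.20 ± 0.07 (edgeR adjusted p = 0.137). With the number as a block these edgeR adjusted p-values were 0.0580 and 0.0185, so the siRagC2 call changes.

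The 7 mevalonate genes, which build farnesyl diphosphate from acetyl-CoA, had log2 fold changes of -0.13 to 0.08 with siRagC1 and -0.04 to 0.10 with siRagC2. The lowest was ACAT2, the cytosolic thiolase of the first step, at 60.3 to 66.2 CPM with siRagC1 (median 61.6) and 57.4 to 70.6 CPM with siRagC2 (median 66.6), against 65.2 to 73.3 CPM with siCtrl (median 67.4). With siRagC1, ACAT2 was below its same-numbered control in 6 of 6 numbers and below the lowest control in 5 libraries. Its log2 fold change was -0.13 ± 0.04 (edgeR adjusted p = 0.123), and DESeq2 called it; edgeR did so without the libraries of number 6 (adjusted p = 0.0354). HMGCS1, the HMG-CoA synthase that condenses acetoacetyl-CoA with acetyl-CoA, held the highest estimate with siRagC2, 0.10 ± 0.11 (edgeR adjusted p = 0.707). MVK, PMVK, MVD, IDI1 and FDPS, the enzymes that follow down to farnesyl diphosphate, had edgeR adjusted p-values of at least 0.328 with either siRNA.

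The 11 sterol genes, which turn farnesyl diphosphate into cholesterol, ranged from -0.09 to 0.06 on the log2 scale with siRagC1 and from -0.05 to 0.10 with siRagC2. FDFT1, squalene synthase, was lower than the same-numbered control in 6 of 6 numbers with siRagC1, at -0.09 ± 0.07 (edgeR adjusted p = 0.565). MSMO1, a C4-methyl sterol oxidase, had the highest estimate with siRagC2, 0.10 ± 0.13 (edgeR adjusted p = 0.747), with 4 of 6 libraries above the highest control. SQLE, squalene epoxidase, had log2 fold changes of -0.06 with siRagC1 and -0.04 with siRagC2. DHCR7, a late sterol reductase, had -0.07 with siRagC1 and -0.03 with siRagC2. CYP51A1, the lanosterol demethylase, was at 2.85 to 6.12 CPM over all libraries, the lowest level of the members. HSD17B7 has a near-identical copy, so reads may be split between them; the authors' handling of such reads is not stated in the labels.

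The 12 fatty acid genes were negative for 9 members with siRagC1 and for 10 with siRagC2, and the unblocked edgeR fit called none of them. FASN, the fatty acid synthase, spanned 489 to 891 CPM with siRagC1 (median 669) and 554 to 754 CPM with siRagC2 (median 647), against 395 to 967 CPM with siCtrl (median 735). Both knockdown ranges lay inside that of siCtrl, and the log2 fold changes were -0.06 ± 0.13 for siRagC1 and -0.12 ± 0.13 for siRagC2 (edgeR adjusted p = 0.867 and 0.70). ACLY, which makes cytosolic acetyl-CoA from citrate, had log2 fold changes of -0.06 with siRagC1 and -0.04 with siRagC2. ACSS2, which makes it from acetate, had the highest estimates, 0.12 ± 0.08 with siRagC1 and 0.09 ± 0.08 with siRagC2 (edgeR adjusted p = 0.450 and 0.610), with 4 of 6 siRagC1 libraries above the highest control.

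SCD5, a second delta-9 desaturase, came closest to the threshold in this comparison. It was at 28.0 to 31.4 CPM with siRagC1 (median 29.0) and 25.6 to 31.2 CPM with siRagC2 (median 26.8), against 29.3 to 32.9 CPM with siCtrl (median 31.4). With siRagC2 it was below the same-numbered control in 6 of 6 numbers and below the lowest control in 5 libraries, at a log2 fold change of -0.19 ± 0.05 (edgeR adjusted p = 0.0618, and 0.0420 with the number as a block). Unblocked, it passed without siRagC2 replicate 3 (edgeR adjusted p = 0.0171), without siCtrl replicate 6 (0.0406), and without all libraries of number 3 (0.0377) or number 6 (0.0269). FADS1, the delta-5 desaturase, was also below its same-numbered control in 6 of 6 numbers with siRagC2, at -0.09 ± 0.07 (edgeR adjusted p = 0.566). LPIN1, a phosphatidate phosphatase, spanned 56.1 to 106 CPM with siRagC1 (median 87.8) and 61.4 to 93.8 CPM with siRagC2 (median 75.1), against 64.1 to 107 CPM with siCtrl (median 92.6). Its log2 fold change with siRagC1 was -0.05 ± 0.10 (edgeR adjusted p = 0.842), and with siRagC2 it was -0.23 ± 0.11 (edgeR adjusted p = 0.253, and 0.0158 with the number as a block). The elongases ELOVL1, ELOVL5 and ELOVL6 and the acyl-CoA synthetase ACSL3 had edgeR adjusted p-values of at least 0.241 with either siRNA.

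The groups share the same replicate numbers, so the comparison was repeated with the number as a block. With siRagC2 the blocked fit called 3 members, all lower (3.66% of all genes were called higher and 2.78% lower). They were STARD4 at a log2 fold change of -0.21 ± 0.05 (edgeR adjusted p = 0.0185), SCD5 at -0.19 ± 0.05 (edgeR adjusted p = 0.0420) and LPIN1 at -0.23 ± 0.05 (edgeR adjusted p = 0.0158). With siRagC1 the blocked fit called 0 members (3.29% of genes higher and 2.36% lower), and STARD4 had an edgeR adjusted p of 0.0580. For the mean of both siRNAs it called STARD4, at -0.18 ± 0.04 (edgeR adjusted p = 0.0115; 4.74% of genes higher and 4.10% lower). Between the siRNAs it called 0 members and 0% of genes. SREBF2 and INSIG1 had blocked log2 fold changes with siRagC2 of 0.13 ± 0.04 and 0.18 ± 0.06 (edgeR adjusted p = 0.0560 and 0.0604).

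The blocked siRagC2 calls depended on single libraries. Without siRagC2 replicate 1, and without siRagC2 replicate 4, none of the 3 was called. Without siCtrl replicate 1 LPIN1 alone was called, and STARD4 was no longer called in the mean of both siRNAs (edgeR adjusted p = 0.0661). SCD5 also lost its call without siCtrl replicates 2, 4 or 5, siRagC1 replicates 3 or 5, or siRagC2 replicates 2 or 5, each left out alone. Among the D1103 libraries alone the blocked fit called 6 members with siRagC2, with HMGCS1, MSMO1 and INSIG1 higher and FASN, SCD5 and LPIN1 lower. That is 16.7% of the members, near the 15.4% of all genes called in that fit. Among the D1221 libraries alone it called 0 members and 0.098% of all genes. The difference in effect between the code series, tested without the block, passed for no member (lowest edgeR adjusted p = 0.743 with siRagC2) and for 0% of all genes, of which 2.03% with siRagC1 and 6.66% with siRagC2 were at an unadjusted p under 0.05.

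**Figure D2:**
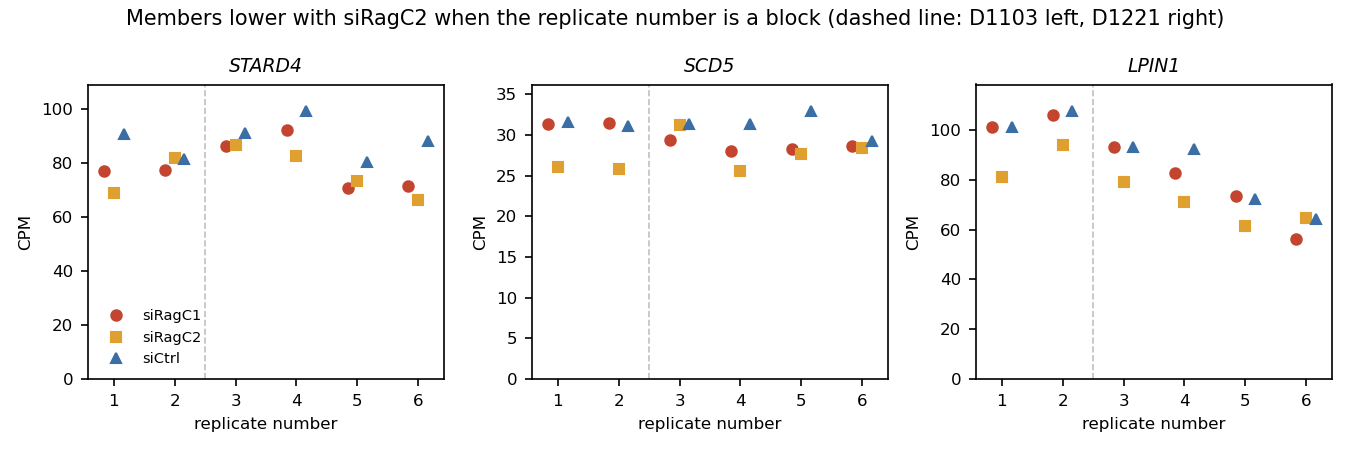
CPM of STARD4, SCD5 and LPIN1 by replicate number, each point 1 library (siRagC1 circles, siRagC2 squares, siCtrl triangles), with the dashed line between the code series D1103 and D1221. Within a number, siRagC2 lies below siCtrl in 5 of 6 numbers for STARD4, 6 of 6 for SCD5 and 5 of 6 for LPIN1.

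More members were called between replicate numbers than between siRNA groups. Within D1221, the 3 libraries of a number (1 per group) were set against those of the other numbers with group held constant, a test chosen after seeing the data. Of the 36 members, 15 differed between numbers 3 to 6 (41.7%), where 1.80% of all genes did (edgeR adjusted p under 0.05). SCD and INSIG1 had the smallest and second smallest p of all 15307 genes, and FADS2 was also among the first 10. The median range between numbers was 0.34 on the log2 scale for the members and 0.20 for all genes tested. This range was larger than the member's own fold change in 35 of 36 members with siRagC1 and in 34 with siRagC2. A range over 4 numbers is by its making larger than a difference of 2 means of the same spread. The share of all genes was not counted. Their median range, 0.20, was also larger than their median absolute log2 fold change, 0.08 with each siRNA.

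Among the members called, the direction was shared. In all 15, number 3 or 4 had the highest number mean, and in 13 number 6 had the lowest. Counting each group by itself, number 3 or 4 was the highest of the 4 in all 3 groups for 26 of 36 members, and number 6 was the lowest in all 3 groups for 12. These counts include siCtrl, which had no RagC siRNA. They were not taken over all genes, so they do not set the members apart from other genes. The median member lay 0.11 log2 units above the mean of the series' controls in siRagC1 replicate 3, 0.14 above in siRagC2 replicate 3 and 0.15 above in siCtrl replicate 3. In replicate 6 it lay at -0.18 with siRagC1, -0.14 with siRagC2 and -0.19 with siCtrl. Over all genes this median stayed between 0.00 and 0.02 in the D1221 libraries, where TMM scaling by its making holds it near 0. Totals were 21.6 to 71.6 M counts in number 3, 21.2 to 23.5 M in number 4, 14.8 to 22.9 M in number 5 and 17.2 to 38.2 M in number 6, and their part in the result was not tested.

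**Figure D3:**
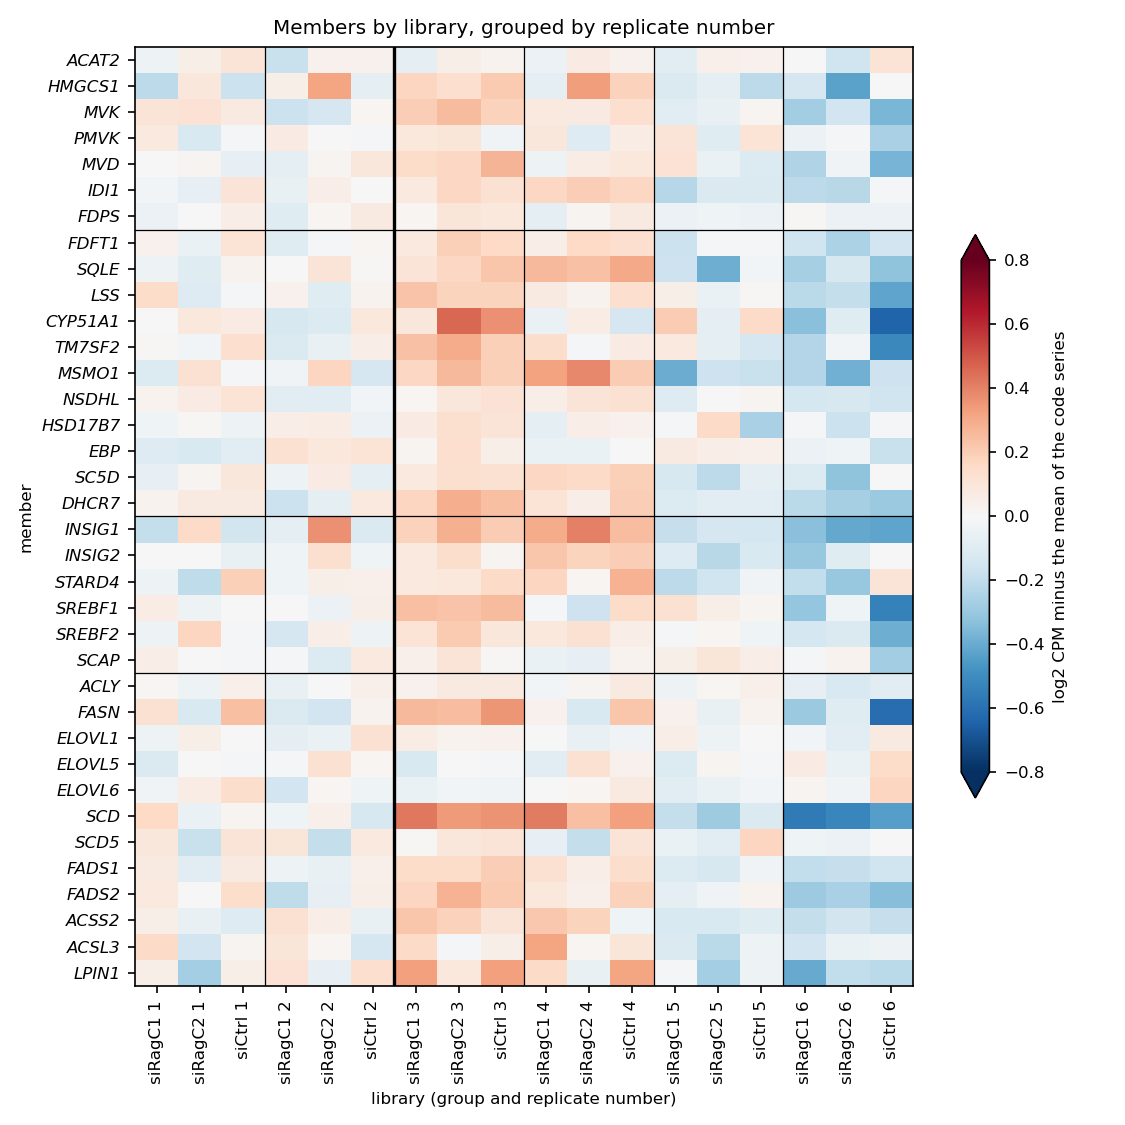
Log2 CPM of each member (rows, by role) in each library (columns, by replicate number with siRagC1, siRagC2 and siCtrl in turn), minus the member's mean over its code series; red is above that mean, blue below, and the thick line separates D1103 from D1221. Within D1221, number 3 or 4 is the highest in all 3 groups for 26 of 36 members. Number 6 is the lowest in all 3 groups for 12 of 36. ELOVL5 and ELOVL6 are in neither count, and the counts were not taken over all genes.

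SCD showed the widest difference. It was at 498, 496, 325 and 250 CPM in siRagC1 replicates 3 to 6 and at 470, 438, 305 and 259 CPM in those of siRagC2, against 476, 466, 343 and 274 CPM with siCtrl. Every library of numbers 3 and 4 was above every library of numbers 5 and 6, and among the 3 groups siRagC1 was highest in numbers 3 and 4 and siCtrl in numbers 5 and 6. The range between number means was 0.88 on the log2 scale, 1.84-fold (edgeR adjusted p = 5.3e-06). INSIG1 had a range of 0.70, 1.63-fold (edgeR adjusted p = 5.64e-05), with the values by library given above.

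Of the desaturases of polyunsaturated fatty acids, FADS2 was at 251, 236, 211 and 182 CPM in siRagC1 replicates 3 to 6 and at 270, 230, 219 and 186 CPM in those of siRagC2, against 258, 254, 228 and 176 CPM with siCtrl (edgeR adjusted p = 0.00182). FADS1 differed 1.27-fold between number means (edgeR adjusted p = 0.00332). ACSS2 differed 1.27-fold and LPIN1 1.43-fold. In each of these genes the mean of number 3 was highest and that of number 6 lowest, though with siRagC2 LPIN1 was lowest in number 5.

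Among the sterol genes, 5 of 11 passed (FDFT1, SQLE, LSS, MSMO1 and DHCR7). MSMO1 was at 74.0, 82.3, 49.9 and 55.9 CPM in siRagC1 replicates 3 to 6 and at 78.8, 86.1, 58.6 and 50.5 CPM in those of siRagC2, against 75.2, 75.8, 58.3 and 58.6 CPM with siCtrl (edgeR adjusted p = 0.00332). LSS, lanosterol synthase, was at 109, 97.6, 96.0 and 80.1 CPM with siRagC1 and 105, 94.9, 89.7 and 81.4 CPM with siRagC2, against 105, 102, 93.5 and 69.4 CPM with siCtrl (edgeR adjusted p = 0.00848). DHCR7 differed 1.41-fold, SQLE 1.42-fold and FDFT1 1.25-fold. Number 6 had the lowest number mean for each of the 5, though not in every group. MSMO1 was lowest in number 5 with siRagC1 and siCtrl, FDFT1 with siRagC1 and SQLE with siRagC2.

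Of the mevalonate genes, MVK and IDI1 passed, at 1.39-fold and 1.26-fold between number means. Of the regulators, INSIG1, STARD4 and SREBF2 passed, SREBF2 at 1.27-fold (edgeR adjusted p = 0.0161). SREBF1 (1.44-fold, edgeR adjusted p = 0.133) and FASN (1.52-fold, edgeR adjusted p = 0.114) did not. Their spread within a number was wide, with FASN at 489 CPM in siRagC1 replicate 6 and 563 CPM in siRagC2 replicate 6, against 395 CPM in siCtrl replicate 6. ACAT2 (1.02-fold), ELOVL1 (1.05-fold), ELOVL5 and FDPS (both 1.08-fold) had the smallest ranges between number means.

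**Figure D4:**
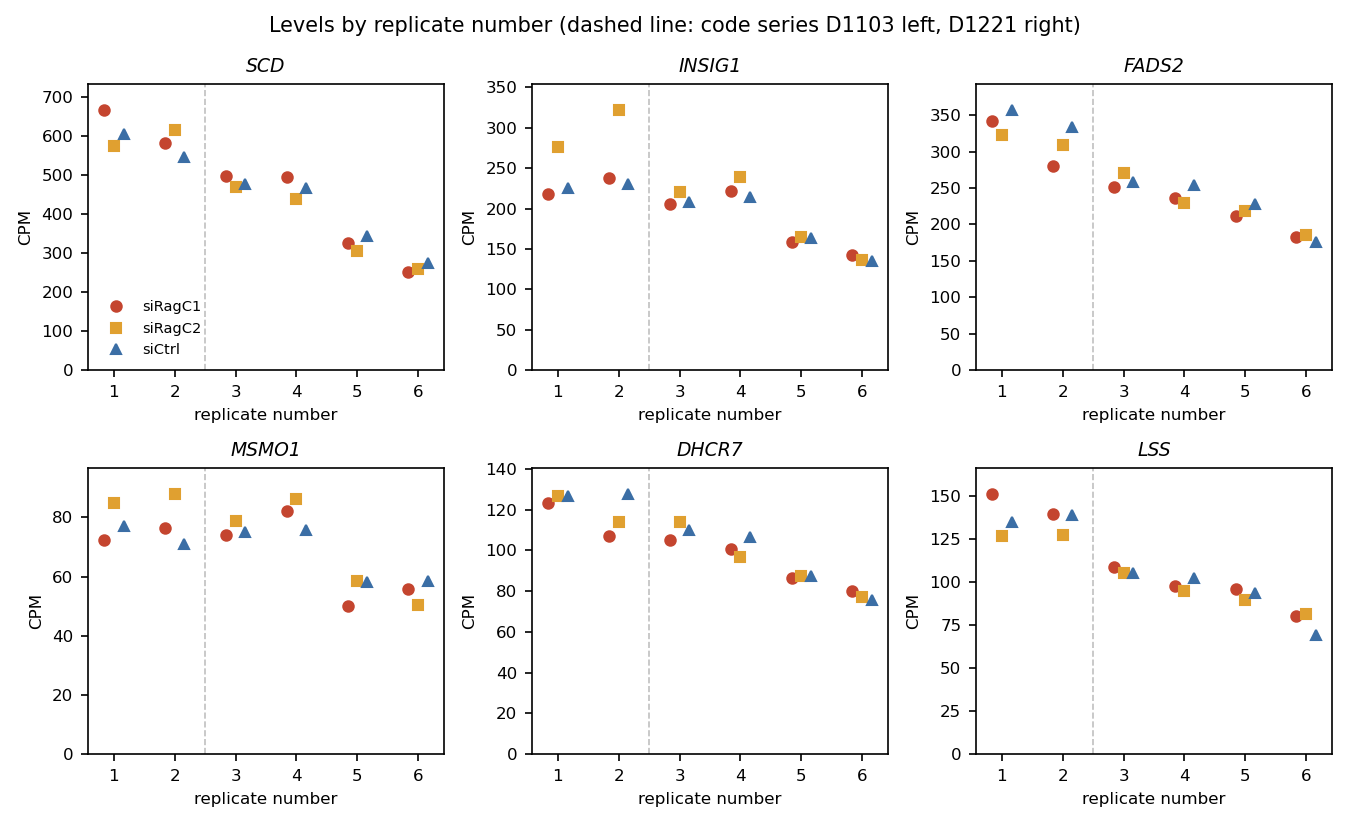
CPM of SCD, INSIG1, FADS2, MSMO1, DHCR7 and LSS by replicate number, each point 1 library (siRagC1 circles, siRagC2 squares, siCtrl triangles), with the dashed line between the code series D1103 and D1221. For SCD, every library of numbers 3 and 4 is at 438 to 498 CPM and every library of numbers 5 and 6 at 250 to 343 CPM, in all 3 groups.

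Few genes of the surrounding pathways were called between these numbers, where 1.80% of all genes were. At that share, lists of 8 to 17 genes would hold few or no calls, so these counts do not set the pathways apart from all genes. None of the tested genes passed in SREBP processing and turnover (0 of 12), sterol export and LXR targets (0 of 8), lysosomal and intracellular sterol transport and storage (0 of 10), the nonsterol isoprenoid branch (0 of 11), other fatty acid synthesis and activation (0 of 17) or fatty acid oxidation (0 of 15). In glycerolipid synthesis 1 of 12 passed, PCYT2, an enzyme of phosphatidylethanolamine synthesis. RRAGC itself did not pass (edgeR adjusted p = 0.56). Between numbers 1 and 2 of D1103, 3 of 36 members passed (8.33%, against 3.37% of all genes), HMGCS1, MVK and EBP.

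The number test depended on which libraries were kept, and the calls over all genes moved with those of the members. It called 2 members without replicate 3 (0.0327% of all genes), 18 without replicate 4 (3.79%), 10 without replicate 5 (0.849%) and 17 without replicate 6 (1.82%). It called 2 without the siRagC1 libraries (0.0457% of all genes), 1 without those of siRagC2 (0.0131%) and 12 without those of siCtrl (1.32%).

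The code series differed as well. Every D1103 library was above every D1221 library for 9 of 36 members (25.0%, against 6.55% of all genes), and below for 0 (against 6.09%). The 9 were MVK, MVD, LSS, TM7SF2, NSDHL, SREBF1, ACLY, SCD and FADS2. SCD was at 666 and 582 CPM in siRagC1 replicates 1 and 2 and at 574 and 615 CPM in those of siRagC2, against 605 and 546 CPM with siCtrl, while its highest D1221 value was 498 CPM. Series and replicate number cannot be told apart here.

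Across the 18 libraries, after each group's mean within its code series was removed, most members varied together. Pearson's r averaged 0.457 over the 630 pairs of members, as a description of libraries that share groups, numbers and depth. Over all pairs of genes tested it averaged 0.0018. TMM scaling tends to hold that value near 0, so it is no measure of how other gene sets vary together. Among the members, r averaged 0.585 within the sterol genes, 0.504 within the regulators, 0.372 within the mevalonate genes and 0.297 within the fatty acid genes. The closest partners of SREBF2 included LSS (r = 0.961), MVK and FADS2 (both 0.958). SREBF1 and FASN had r = 0.948, and INSIG1 and SCD r = 0.940. The elongases ELOVL5 and ELOVL6 averaged -0.256 and -0.172 with the other members.

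Other genes of cholesterol and fatty acid handling included a few that did change with RagC knockdown. Of the lysosomal and intracellular sterol transport genes, 2 of 10 rose with each siRNA and 0 fell. Over all genes, 1.41% rose and 0.627% fell with siRagC1, and 1.87% rose and 1.36% fell with siRagC2. The median log2 fold change of the 10 was 0.09 with siRagC1 and 0.11 with siRagC2. The genes that rose were NPC1 and NPC2, which together move cholesterol out of the lysosome. NPC1 averaged 260.1 ± 20.9 CPM with siRagC1 and 241 ± 23.4 CPM with siRagC2, against 200.1 ± 17.5 CPM with siCtrl (SD, n = 6 each), at log2 fold changes of 0.38 and 0.27 (edgeR adjusted p = 0.000923 and 0.0104). NPC2 averaged 73.6 ± 9.99 CPM with siRagC1 and 69.0 ± 6.83 CPM with siRagC2, against 57.1 ± 6.29 CPM with siCtrl, at log2 fold changes of 0.36 and 0.28 (edgeR adjusted p = 0.00739 and 0.0259). Among the D1221 libraries alone none of these 4 calls held (edgeR adjusted p = 0.206 and 0.323 for NPC1, 0.531 and 0.333 for NPC2). That fit called 0.00653% of all genes with each siRNA, so hardly any call could hold there. The NPC2 call with siRagC2 was also lost without siCtrl replicate 1 or 5, or siRagC2 replicate 1, 3 or 4, each left out alone.

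Of the 8 sterol export and LXR target genes tested, 2 rose with siRagC1 and 0 with siRagC2 (median 0.10 and 0.12). Over all genes, 1.41% and 1.87% rose. ABCA1, which exports cholesterol to lipid-poor apolipoproteins, was at 104 to 188 CPM with siRagC1, against 61.1 to 107 CPM with siCtrl (log2 fold change 0.53, edgeR adjusted p = 0.0262). PLTP, a phospholipid transfer protein, was at 5.17 to 7.09 CPM with siRagC1, against 3.68 to 5.85 CPM with siCtrl (0.31, edgeR adjusted p = 0.0382). ABCA1's log2 fold change was 0.20 and PLTP's 0.24 with siRagC2. Among the D1221 libraries alone neither was called with siRagC1 (edgeR adjusted p = 0.684 and 0.675), where 0.00653% of all genes were called. The ABCA1 call was also lost without replicate 1 or 2 of siRagC1 or of siCtrl, and the PLTP call without any of siRagC1 replicates 1 to 5 or siCtrl replicates 1, 2, 5 or 6.

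Of 17 other fatty acid synthesis and activation genes, 1 rose with siRagC1 (against 1.41% of all genes) and 0 with siRagC2 (against 1.87%). It was ACSL1, an acyl-CoA synthetase, at 45.3 to 56.2 CPM with siRagC1, against 38.6 to 46.3 CPM with siCtrl (0.25, edgeR adjusted p = 0.0166). This call was lost among the D1221 libraries alone (edgeR adjusted p = 0.711, with 0.00653% of all genes called). It was also lost without siRagC1 replicate 1 or 2 or siCtrl replicate 2. edgeR called 0 genes with either siRNA in SREBP processing and turnover (12 tested, 2 and 4 at an unadjusted p under 0.05) and the nonsterol isoprenoid branch (11, 1 and 3). It also called 0 in glycerolipid synthesis (12, 0 and 4) and fatty acid oxidation (15, 4 and 1). Over all genes, 2.04% with siRagC1 and 3.23% with siRagC2 were called, and 17.1% and 18.5% were at an unadjusted p under 0.05. With the number as a block, edgeR also called NCEH1, a cholesteryl ester hydrolase, lower with siRagC1 (-0.20, adjusted p = 0.0153). It called RABGGTB, a prenyltransferase subunit, lower (-0.15, adjusted p = 0.0424) and DGAT2, which makes triacylglycerol, higher (0.22, adjusted p = 0.0445) with siRagC2.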

How the data were processed

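The 18 MDA-MB-231 libraries were each built from 500 ng of total RNA, per the labels. One table of raw counts, not normalized, was deposited by the authors. The submitters' processing notes name cutadapt 0.6.2, STAR 2.7.6a and the build GRCh37/hg19; the counting tool, strand setting and annotation were not given in the sources used here. Of 57820 identifiers, 51996 had a symbol. Depth was 14.8 to 71.6 M counts per library, and between replicates the counts varied 2.81 to 81.7 times more than counting noise, so no library duplicated another.

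Counts were fitted in R 4.3.3 with edgeR 4.0.16 (TMM, filterByExpr, robust quasi-likelihood F test) with terms for code series and group over all 18 libraries, adjusted over 15307 genes at 0.05; limma 3.58.1 (voom) and DESeq2 1.42.0 were alternatives. The procedure was tested on simulated data. The members, lists and named genes (all members, and the list genes that passed) were chosen with earlier results of these data known. The test between replicate numbers, the block with libraries left out, and the description of co-variation were chosen after seeing the data.

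The labels give the same replicate numbers in each group. Deviations from the group means, code series included, correlated between same-numbered libraries. The values were 0.106 to 0.705 (siRagC1 with siCtrl), 0.172 to 0.578 (siRagC2 with siCtrl) and 0.289 to 0.656 (siRagC1 with siRagC2), all above 0.1. These deviations keep the difference between code series, and differently numbered libraries of a series were not compared. The correlations therefore cannot show pairing by number. The numbers were taken to pair the samples because the groups share them, and blocked values are given where they change a call. Intervals and SEs are from the fit without the block unless the block is named.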

Additional observations from a re-analysis of the deposited data

Results flagged for a closer look

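In 108 groups of 6 libraries (36 members in 3 groups), 3 held a library whose gap to the nearest other exceeded Dixon's critical value as a share of the group's range, where chance flags about 1 in 20 groups. EBP, a sterol isomerase, was highest at 43.42 CPM in siRagC1 replicate 2, with the next library at 37.89 CPM. ACAT2 was lowest at 57.4 CPM in siRagC2 replicate 6, with the next at 66.03 CPM. HSD17B7 was lowest at 14.92 CPM in siCtrl replicate 5, with the next at 17.71 CPM.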

How the results depend on the processing

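The count of members called moved from 0 under these alternatives, with the share of all genes called in brackets. With siRagC2 it was 3 with no filter on low counts (2.71%), 1 with DESeq2 (SCD5; 6.50%), 3 with the replicate number as a block (6.44%) and 4 among the D1103 libraries alone (7.54%). With siRagC1 it was 1 with DESeq2 (ACAT2; 5.04%). For the mean of both siRNAs it was 1 with no filter (3.39%) and 1 with the block (8.83%). Between the siRNAs it was 1 among the D1103 libraries (INSIG1; 1.43%). Leaving out each number or library gave 0 to 1 in all 4 comparisons. With the block, leaving out each library gave 0 to 2 (siRagC1), 0 to 4 (siRagC2), 0 to 5 (mean) and 0 to 4 (between siRNAs). The blocked D1103 libraries gave 6 for siRagC2 (15.4%), 3 for the mean (15.7%) and 6 between siRNAs (5.26%), and the blocked D1221 libraries 0 for siRagC2 (0.098%) and 0 for the mean (0.327%). Between replicate numbers of D1221, DESeq2 called 23 members (4.02%), and leaving out each number gave 2 to 18; without the siRagC1 libraries it was 2 and without those of siRagC2 it was 1. The block changed no other call than those given. No result reversed. The causes were not tested. The mean of both siRNAs uses all groups, so fitting the compared groups alone gave no further value. Depth is lowest for CYP51A1.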
